A study of Mus musculus with 30 samples.

Results

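The change of the fracture callus between day 7 (d7) and day 10 (d10) after fracture was examined in diet-induced obese (DIO) mice. The comparison used the 6 DIO libraries of these days, 3 on d7 and 3 on d10, of the 30 libraries of the series. It covered the 16995 genes, of the 43629 listed, that passed a filter on low counts. All mice were male C57BL/6J, 20 weeks old at fracture. The DIO mice had been raised on high-fat diet and the Lean mice, which serve here only as a reference for the diet, on lean diet. Every mouse, of both diets, had an open osteotomy of the right tibia held by an intramedullary nail. Each library came from the callus of 1 mouse, from which the surrounding soft tissue had been removed, so p-values measure the spread between mice. Whole callus was sequenced, and fewer cells of a type and less RNA per cell cannot be told apart.

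A fracture held by a nail heals mostly through a cartilage template. Chondrocytes first fill the gap with a matrix rich in type II collagen and aggrecan, then enlarge, and the cartilage is invaded by vessels and resorbed while osteoblasts lay down type I collagen bone. Osteoclasts, multinucleate cells of the monocyte lineage, remove mineralized cartilage and bone with acid and cathepsin K, and marrow with blood-forming cells and fat later settles between the new trabeculae.

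Reads counted on genes ran from 14888242 to 17116460 per library on d7 and from 13247122 to 14964271 on d10 (p = 0.2, two-sided exact permutation, smallest possible p 0.1). The share of counts on mitochondrially encoded genes was 1.05% to 2.44% on d7 and 1.5% to 1.88% on d10 (exact permutation p = 0.8). No pair of libraries of 1 day could be the same library counted again. Levels are given as CPM, counts relative to the library's total after scaling with TMM factors, and always in the order of the replicate numbers. On the first principal component of the 18 DIO libraries, which held 48.9% of the variance, the d7 libraries lay between -65.7 and -28.5 and the d10 libraries between 2.82 and 5.66.

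Of the 16995 genes, 2212 (13%) changed between d7 and d10 at an adjusted p under 0.05 in the quasi-likelihood test of edgeR. In all, 1021 (6.01%) rose and 1191 (7.01%) fell, and the change was at least 2-fold for 570 of those that rose and 722 of those that fell. The median log2 fold change of all tested genes was -0.02. The 3 libraries of d10 did not overlap the 3 of d7 for 4609 genes (27.1%), and 2140 of the called genes were among these. In the sentences below, "rose", "fell" and "changed" are used of genes that passed this test, and a log2 fold change is d10 minus d7. Where a list is given with 0 calls in a direction, edgeR found 0 to 3 of its genes there at an unadjusted p under 0.05 and DESeq2 called 0 to 2. In the plot of the gene lists, resorption, B-lineage and osteocyte genes lay to the right, and cartilage matrix, muscle regeneration and chemokine genes to the left.

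**Figure D1:**
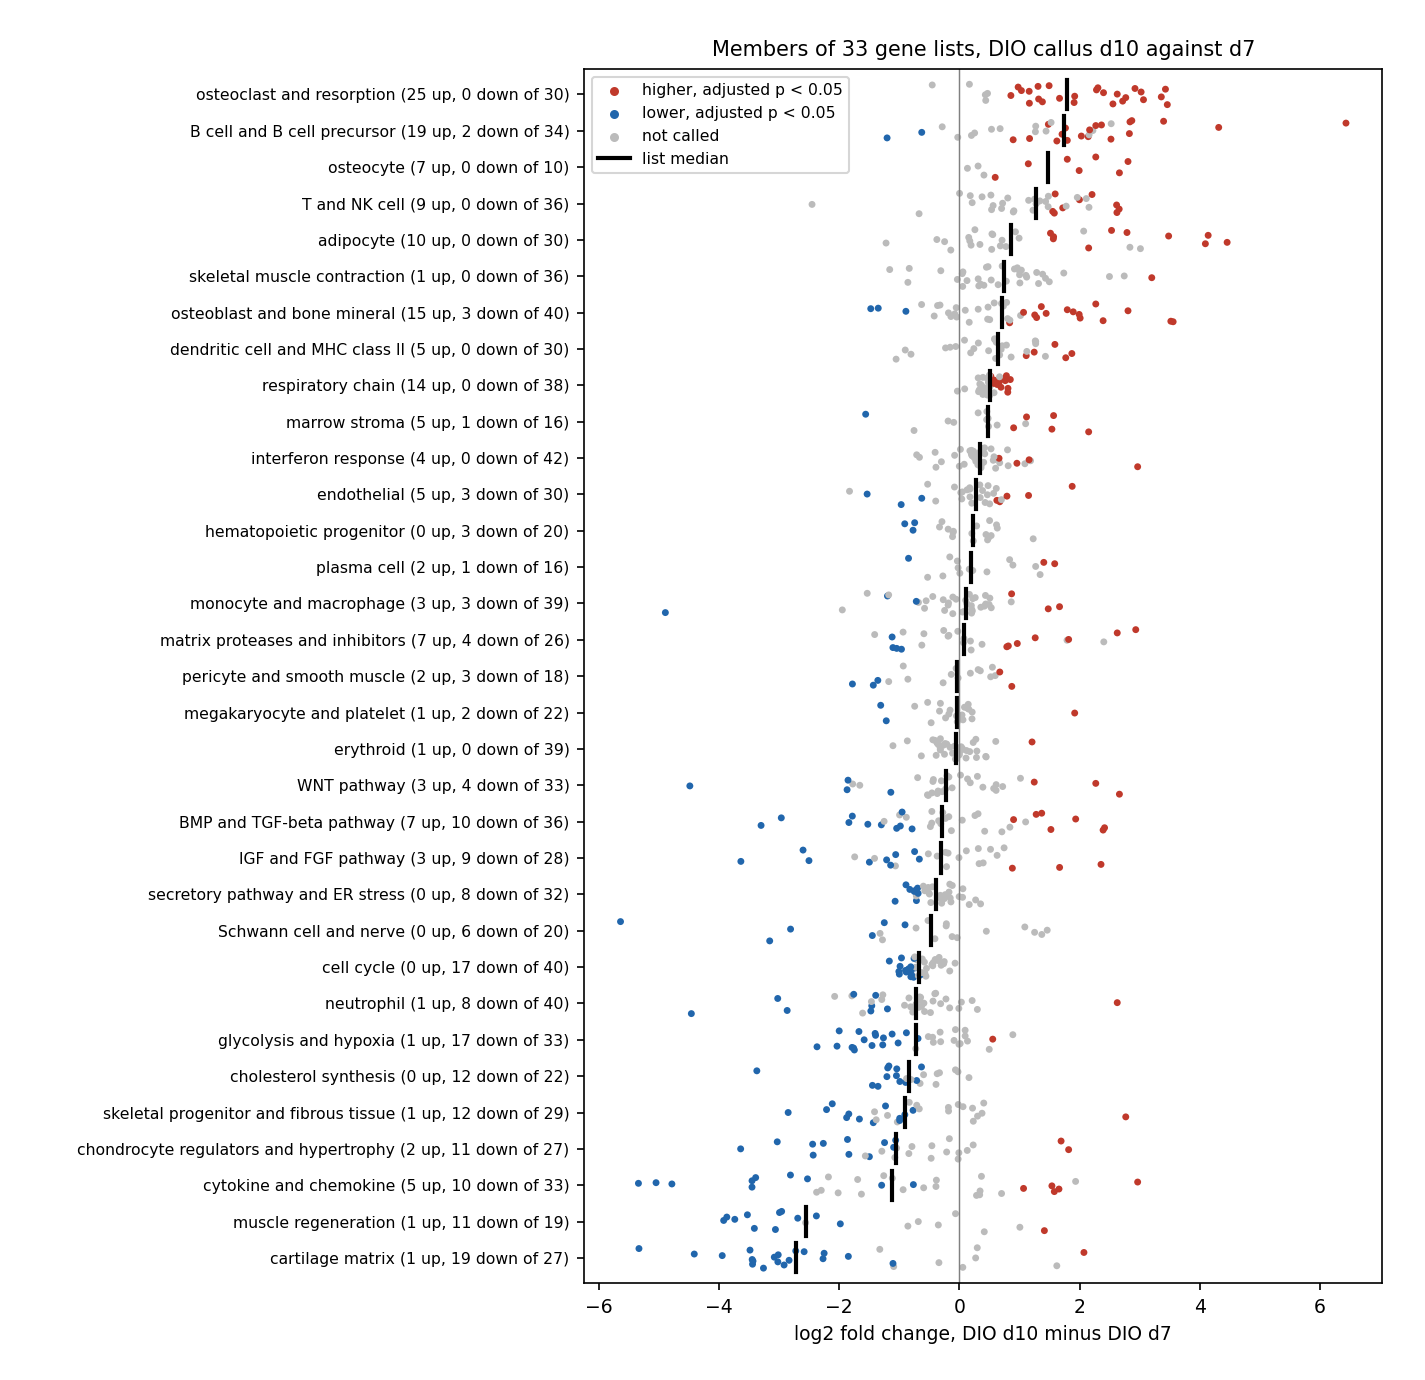
Log2 fold change (x axis, DIO d10 minus DIO d7) of every tested member of 33 gene lists (y axis, with the numbers that rose and fell), as 1 point per gene, red where it rose, blue where it fell and grey where it was not called. The black bar is the median of the list, which ran from -2.72 for cartilage matrix to 1.79 for osteoclast and resorption genes.

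Cartilage matrix genes fell together. Of 27 tested members, 19 fell and 1 rose, with a median log2 fold change of -2.72 beside -0.02 over all genes, and 21 had no overlap between the days. Their summed level was 27373 to 56856 CPM on d7 and 6638 to 12257 CPM on d10. Col2a1 (chr15:97975602-98004695 on GRCm38), which encodes the main collagen of cartilage, was the fourth most abundant gene on d7, at 1.81% of the counts, and was not among the 10 most abundant on d10. It stood at 22163, 9554 and 26932 CPM on d7 and 1191, 4031 and 2018 CPM on d10. Every d10 library lay below every d7 library, and the d7 libraries themselves differed more than 2-fold (log2 fold change -3.02 ± 0.84 (SE), adjusted p = 0.023). The call for Col2a1 was lost without d7 replicate 1, d10 replicate 1 or d10 replicate 3, with adjusted p up to 0.094, and the count of the list that fell was then 14, 14 and 15.

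Acan, the aggregating proteoglycan of cartilage, stood at 3149, 2295 and 3879 CPM on d7 and 160.0, 468 and 347 CPM on d10 (log2 fold change -3.26 ± 0.68 (SE), adjusted p = 0.0038). Its days were far apart. The type IX collagen chains, which bind to the surface of type II fibrils, fell too, with log2 fold changes of -3.43 for Col9a1, -2.83 for Col9a2 and -3.45 for Col9a3. The call for Col9a2 was lost in 5 of the 6 leave-one-out fits, in each but that without d7 replicate 2 (adjusted p up to 0.11). Per length of exon, Col2a1 had 2115 RPKM on d7 and 261 on d10, Acan 416 RPKM on d7 and 43.5 on d10 and Comp, cartilage oligomeric matrix protein, 1198 RPKM on d7 and 249 on d10.

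The largest decrease of the group was that of Ucma (chr2:4976122-4985748), a secreted protein of the upper growth plate, at 177, 195 and 271 CPM on d7 and 0.309, 8.55 and 7.04 CPM on d10 (log2 fold change -5.33 ± 0.91 (SE), adjusted p = 7.7e-04). The d10 library of replicate 1 was the lowest of all for this gene, far below the other d10 libraries. Matn3, a matrilin that links collagen fibrils to aggrecan, showed the same library order, at 563, 418 and 562 CPM on d7 and 4.01, 38.2 and 30.3 CPM on d10 (log2 fold change -4.41 ± 0.79 (SE), adjusted p = 0.0012). Hapln1, the link protein that ties aggrecan to hyaluronan, fell by 3.94 on the log2 scale. Cnmd, chondromodulin, an inhibitor of vessel growth in cartilage, stood at 552, 429 and 579.5 CPM on d7 and 12.3, 82.1 and 49.3 CPM on d10 (log2 fold change -3.44 ± 0.80 (SE), adjusted p = 0.0079), and Scrg1 at 79.2, 98.8 and 97.3 CPM on d7 and 1.85, 13.7 and 9.01 CPM on d10 (log2 fold change -3.48 ± 0.49 (SE), adjusted p = 1.5e-04). In each of these genes d10 replicate 1 had the lowest value. Prg4, the lubricin of joint surfaces, fell by 2.72 on the log2 scale. The member that rose, Otos, was low, at 0.569, 0.295 and 0.405 CPM on d7 and 0.926, 3.19 and 1.34 CPM on d10. Its call was lost in the fit of the 6 libraries alone and without d7 replicate 2, d7 replicate 3 or d10 replicate 2 (adjusted p up to 0.16).

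Of 27 tested genes of chondrocyte regulation and hypertrophy, 11 fell and 2 rose, and 23 had a lower mean on d10 (median log2 fold change -1.06). Sox9 (chr11:112782224-112787760), the transcription factor that sets the chondrocyte fate, was tightly grouped within each day, at 149.8, 161 and 167 CPM on d7 and 12.8, 26.7 and 19 CPM on d10 (log2 fold change -3.03 ± 0.32 (SE), adjusted p = 1.1e-05). Sox5, its partner, stood at 10.4, 11.2 and 11.7 CPM on d7 and 2.62, 2.54 and 1.76 CPM on d10 (log2 fold change -2.26 ± 0.30 (SE), adjusted p = 7.8e-05). Both lay entirely below their d7 level on d10. Wwp2, a ubiquitin ligase whose gene hosts a cartilage microRNA, had 877, 1136 and 1335 CPM on d7 and 239, 365 and 318 CPM on d10 (log2 fold change -1.86 ± 0.23 (SE), adjusted p = 5.7e-05). Slc26a2, the sulfate transporter, and Papss2, the enzyme that activates the sulfate for proteoglycans, fell by 2.44 and 2.58 on the log2 scale, and had the smallest adjusted p of the cartilage genes, 1.4e-06 and 1.5e-06. Fgfr3, the receptor that restrains chondrocyte division, fell by 1.5, and Gdf5, a growth factor of joints and early cartilage, by 1.84. A gene on the opposite strand overlaps 40.3% of the Gdf5 exons.

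Col10a1, the collagen of hypertrophic cartilage, stood at 5712, 1444 and 1684 CPM on d7 and 936, 1881 and 1388 CPM on d10 (log2 fold change -1.07 ± 0.89 (SE), adjusted p = 0.49). Its days overlapped, and d7 replicate 1 was far above all other libraries. Ihh, the signal of prehypertrophic cells, had 235, 82.8 and 183 CPM on d7 and 32.6, 115 and 57.8 CPM on d10 (log2 fold change -1.29 ± 0.62 (SE), adjusted p = 0.19), and Pth1r, the receptor in the feedback loop with it, 1329, 724 and 1417 CPM on d7 and 502, 798 and 711 CPM on d10 (log2 fold change -0.79 ± 0.32 (SE), adjusted p = 0.12). Neither passed the test, and in both the d10 library of replicate 2 reached into the d7 range. The members that rose were Mmp13 and Spp1, which late hypertrophic chondrocytes share with osteoblasts, and in the case of Spp1 also with osteoclasts. Mmp13, collagenase 3, stood at 1223, 704 and 485 CPM on d7 and 2649.9, 2396 and 3461 CPM on d10 (log2 fold change 1.82 ± 0.41 (SE), adjusted p = 0.0058). Spp1, osteopontin, had 2540.0, 1688 and 1067 CPM on d7 and 4985, 4936 and 7203 CPM on d10 (log2 fold change 1.69 ± 0.34 (SE), adjusted p = 0.0026), with no overlap in either gene, and 18.8% of its exon length is shared with another gene on the same strand.

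**Figure D2:**
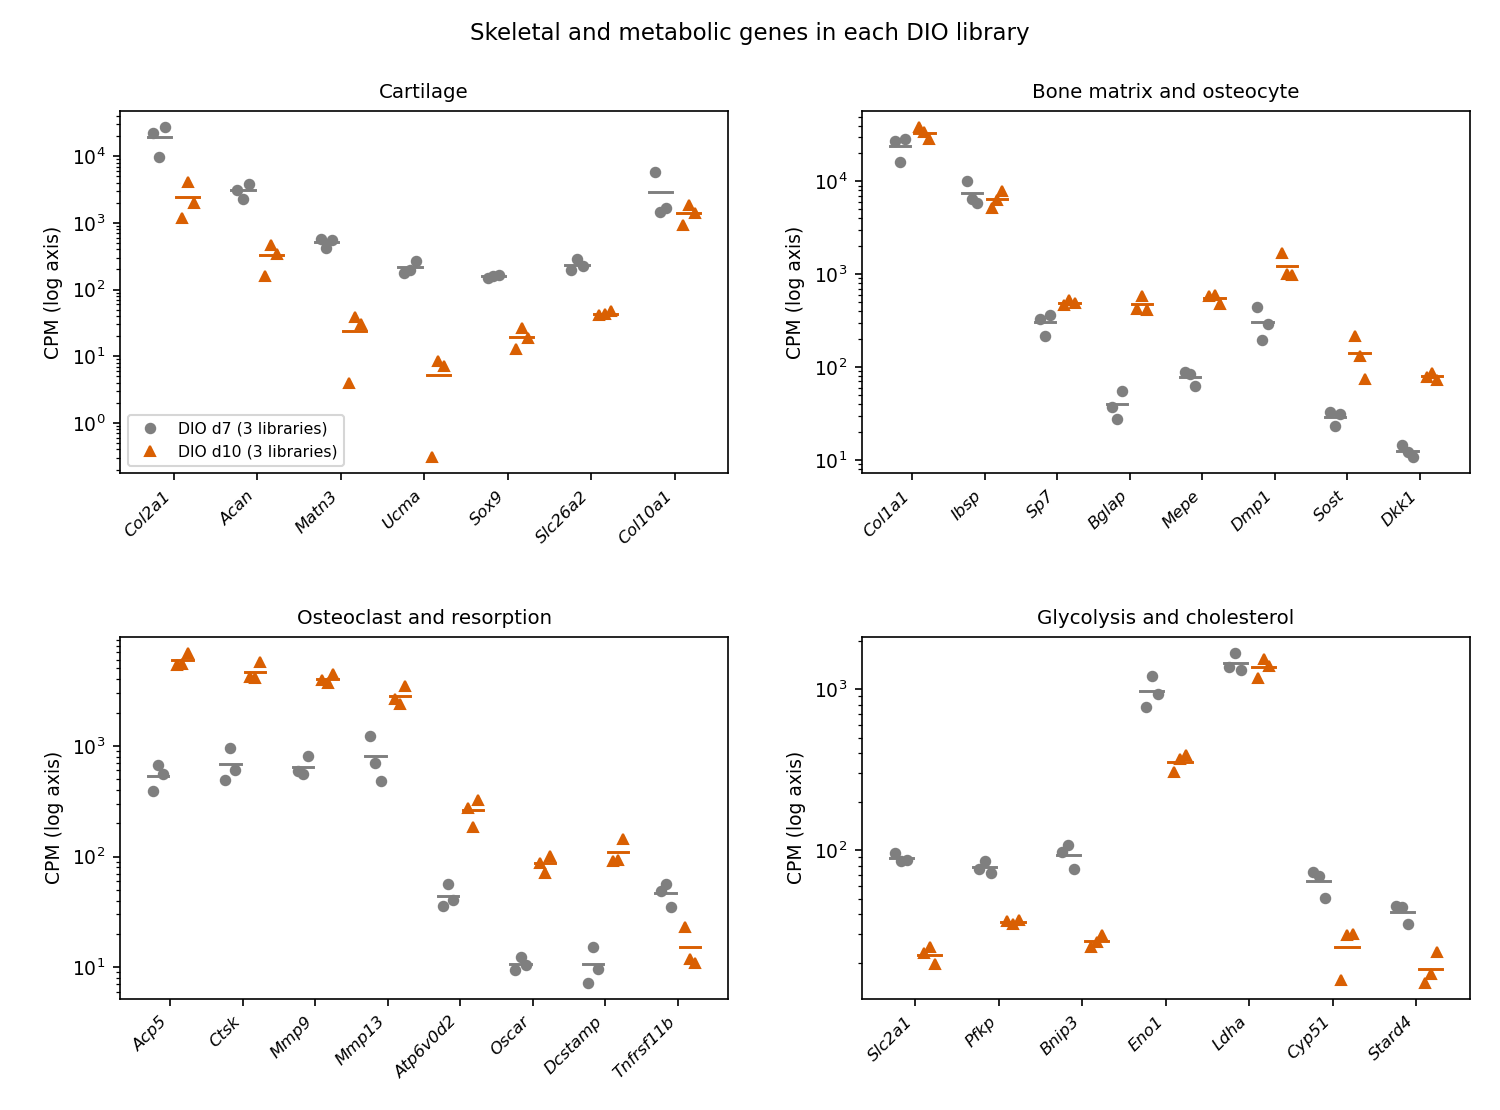
CPM on a log axis in each DIO library of d7 (grey circles) and d10 (orange triangles) for genes of cartilage, bone, resorption, glycolysis and cholesterol metabolism, with a bar at the mean of 3 libraries. The days separate for Sox9, Bglap, Acp5 and Slc2a1 and overlap for Col10a1, Ibsp and Ldha.

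Bone genes divided by their stage. Of 40 tested genes of osteoblasts and bone mineral, 15 rose and 3 fell (median log2 fold change 0.72), and of 10 osteocyte genes 7 rose and 0 fell at this threshold (median 1.47). Mepe, Dmp1, Sost and Phex rose and are counted in both lists. Genes of the committed osteoblast and of the bulk matrix did not pass the test. Runx2, the factor that founds the osteoblast lineage, stood at 95.5, 62.7 and 79.6 CPM on d7 and 128, 90.3 and 113 CPM on d10 (log2 fold change 0.48 ± 0.22 (SE), adjusted p = 0.16). Sp7, osterix, had 333, 214 and 363 CPM on d7 and 469, 523 and 489 CPM on d10 (log2 fold change 0.70 ± 0.32 (SE), adjusted p = 0.16), with no overlap but no call. Alpl, the alkaline phosphatase, overlapped between the days, at 1669, 943 and 1574 CPM on d7 and 1395, 1517 and 1221 CPM on d10 (log2 fold change -0.02 ± 0.35 (SE), adjusted p = 0.98), as did Ibsp, bone sialoprotein, at 10070.0, 6403 and 5784 CPM on d7 and 5150.4, 6297 and 7793 CPM on d10 (log2 fold change -0.21 ± 0.39 (SE), adjusted p = 0.79). Col1a1, the most abundant gene of the d7 libraries, had 27495, 16053 and 28872 CPM on d7 and 38088, 33695 and 28632 CPM on d10 (log2 fold change 0.47 ± 0.34 (SE), adjusted p = 0.42).

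Osteocalcin rose most. Bglap (chr3:88383501-88384464) stood at 37.3, 27.8 and 55.1 CPM on d7 and 424, 577 and 415 CPM on d10 (log2 fold change 3.56 ± 0.34 (SE), adjusted p = 3.8e-06), and its neighbour Bglap2 at 61.4, 34.8 and 75.9 CPM on d7 and 615, 827 and 532 CPM on d10 (log2 fold change 3.52 ± 0.34 (SE), adjusted p = 4.2e-06). Both were at least several-fold higher in every d10 library than in any of d7. The transcripts of Bglap and Bglap2 are near-identical to that of the third gene of the cluster over 99.8% of the former and the whole of the latter, so how reads divide among these genes is uncertain. Mepe, a phosphoglycoprotein of osteocytes, had 88.6, 85.2 and 62.5 CPM on d7 and 576, 598 and 479 CPM on d10 (log2 fold change 2.81 ± 0.25 (SE), adjusted p = 3.7e-06), and Dmp1, a matrix protein of young osteocytes, 438, 197 and 289.9 CPM on d7 and 1695, 1006 and 987 CPM on d10 (log2 fold change 1.99 ± 0.39 (SE), adjusted p = 0.0022). Phex, the endopeptidase of phosphate balance, rose by 1.80 on the log2 scale, Ifitm5, a membrane protein of mineralizing osteoblasts, by 1.07, and Col22a1 by 2.01. The call for Ifitm5 was lost without d7 replicate 2, d10 replicate 2 or d10 replicate 3 (adjusted p up to 0.086), and 34.8% of its transcript is near-identical to part of another gene. The 3 members that fell were Postn, Lox and Plod2. Postn, periostin, a matrix protein of the periosteum, stood at 1792, 4311 and 1280.4 CPM on d7 and 876, 992 and 1032 CPM on d10 (log2 fold change -1.35 ± 0.33 (SE), adjusted p = 0.011), with d7 replicate 2 far above the others. It was not called without that library or in the fit of the 6 libraries alone (adjusted p up to 0.087).

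WNT antagonists went both ways. Sost, sclerostin, a WNT inhibitor made by mature osteocytes, stood at 32.6, 23.4 and 31.2 CPM on d7 and 216, 131 and 74.6 CPM on d10 (log2 fold change 2.27 ± 0.33 (SE), adjusted p = 1.8e-04). Dkk1, which blocks the LRP co-receptors of WNT, had 14.5, 12.2 and 10.7 CPM on d7 and 78.6, 85.7 and 73.0 CPM on d10 (log2 fold change 2.66 ± 0.35 (SE), adjusted p = 9.2e-05), and Wif1, which binds WNT ligands, 100.4, 67.3 and 66.2 CPM on d7 and 203, 172 and 179.7 CPM on d10 (log2 fold change 1.25 ± 0.36 (SE), adjusted p = 0.027). In these 3 genes no d10 library overlapped d7, but the call for Wif1 was lost in 5 of the 6 leave-one-out fits (adjusted p up to 0.097). Sfrp1, a decoy receptor for WNT, moved in the opposite direction, at 152, 641 and 136 CPM on d7 and 15.3, 12.5 and 13.9 CPM on d10 (log2 fold change -4.48 ± 0.47 (SE), adjusted p = 1.1e-05), and all d10 libraries lay close together and far below any d7 library. Wnt11 fell by 1.85 on the log2 scale. Of the 33 WNT genes tested, 3 rose and 4 fell (median -0.23), beside 6.01% and 7.01% of all tested genes. Sfrp5 had 6.77, 7.09 and 11.5 CPM on d7 and 2.24, 3.48 and 1.69 CPM on d10 and did not pass the test (adjusted p = 0.07).

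Genes of resorption rose. Of 30 tested members, 25 rose and 0 fell at this threshold, 26 had no overlap between days, and the median log2 fold change was 1.79. Their summed level was 3083 to 4064 CPM on d7 and 18718 to 23660 CPM on d10. Acp5 (chr9:22126727-22135711), the tartrate-resistant phosphatase of osteoclasts, stood at 390.0, 666 and 557 CPM on d7 and 5393, 5478 and 6891 CPM on d10 (log2 fold change 3.46 ± 0.32 (SE), adjusted p = 3.8e-06) and was the fifth most abundant gene on d10. Ctsk, cathepsin K, which cuts type I collagen in the resorption pit, had 491, 949 and 602 CPM on d7 and 4142, 4118 and 5660.4 CPM on d10 (log2 fold change 2.77 ± 0.30 (SE), adjusted p = 1.5e-05). Mmp9, gelatinase B, which osteoclasts use on cartilage matrix, had 593, 553 and 802 CPM on d7 and 3940.1, 3667 and 4427 CPM on d10 (log2 fold change 2.63 ± 0.30 (SE), adjusted p = 2.3e-05). The lowest d10 library was above the highest d7 library by several-fold in all 3 genes. With any single library left out, 23 to 26 of the 30 genes rose.

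Csf1r, the receptor for the survival factor CSF1, stood at 176, 179 and 179 CPM on d7 and 600.5, 526 and 570.0 CPM on d10 (log2 fold change 1.67 ± 0.22 (SE), adjusted p = 7.8e-05), and Tnfrsf11a, which encodes RANK, at 18.5, 14.8 and 11.6 CPM on d7 and 46.2, 35.9 and 44.5 CPM on d10 (log2 fold change 1.49 ± 0.19 (SE), adjusted p = 6.8e-05). Oscar, the co-receptor that amplifies RANK signalling, had 9.43, 12.3 and 10.4 CPM on d7 and 88.0, 71.0 and 102 CPM on d10 (log2 fold change 3.02 ± 0.22 (SE), adjusted p = 4.4e-07). Dcstamp, needed for cell fusion, had 7.28, 15.2 and 9.73 CPM on d7 and 91.7, 93.6 and 145 CPM on d10 (log2 fold change 3.36 ± 0.33 (SE), adjusted p = 4.8e-06), and Ocstamp, its relative, rose by 2.40 on the log2 scale. In all of these genes no d10 library overlapped d7. For acid secretion, Atp6v0d2, a subunit of the proton pump, stood at 35.8, 56.7 and 40.5 CPM on d7 and 274, 185 and 323 CPM on d10 (log2 fold change 2.56 ± 0.24 (SE), adjusted p = 4.0e-06), Tcirg1, the osteoclast subunit of the same pump, rose by 1.31 and Snx10, a sorting nexin of the ruffled border, by 2.31. Ckb, brain creatine kinase, had 98.3, 149 and 176 CPM on d7 and 1117, 1149 and 1271 CPM on d10 (log2 fold change 3.06 ± 0.30 (SE), adjusted p = 5.5e-06). Nfatc1, the master transcription factor of the osteoclast, stood at 127, 113 and 132 CPM on d7 and 209.7, 146 and 159 CPM on d10 and was not called (adjusted p = 0.13).

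Of the signals that reach the osteoclast, Tnfsf11, RANKL, overlapped between days, at 26.3, 27.8 and 13.2 CPM on d7 and 18.2, 15.6 and 15.5 CPM on d10 (log2 fold change -0.45 ± 0.34 (SE), adjusted p = 0.45). Tnfrsf11b, osteoprotegerin, the decoy that neutralizes RANKL, stood at 49.2, 56.7 and 35.3 CPM on d7 and 22.9, 11.9 and 10.8 CPM on d10 (log2 fold change -1.63 ± 0.40 (SE), adjusted p = 0.01). Its d10 libraries all lay below d7, and its call was lost without d10 replicate 2 or 3 (adjusted p up to 0.055). Csf1 had 109, 52.4 and 83.1 CPM on d7 and 212, 168 and 134 CPM on d10 (log2 fold change 1.07 ± 0.27 (SE), adjusted p = 0.012), a call lost without d7 replicate 2 or d10 replicate 1 (adjusted p up to 0.062), and Il34, the other ligand of CSF1R, was not called (adjusted p = 0.69). Among matrix proteases and their inhibitors, 7 of 26 rose and 4 fell. Those that rose include Timp4, an inhibitor, and Mmp9 and Mmp13, which are also on lists above.

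The promoters of a few of these genes are shown because their messages moved together and their sequence can be read. For each gene the 250 bases before the start site are given 5′ to 3′ on the strand of the gene (RefSeq, GRCm38.p6). Capitals in the first pair mark ACCACA, the core bound by RUNX factors, on either strand.
Bglap, chr3:88384467-88384716, minus strand: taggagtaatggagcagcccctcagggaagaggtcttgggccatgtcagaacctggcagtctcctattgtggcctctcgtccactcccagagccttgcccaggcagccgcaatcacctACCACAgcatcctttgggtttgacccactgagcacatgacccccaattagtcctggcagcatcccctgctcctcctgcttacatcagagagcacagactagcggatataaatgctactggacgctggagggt
Mepe, chr5:104325079-104325328, plus strand: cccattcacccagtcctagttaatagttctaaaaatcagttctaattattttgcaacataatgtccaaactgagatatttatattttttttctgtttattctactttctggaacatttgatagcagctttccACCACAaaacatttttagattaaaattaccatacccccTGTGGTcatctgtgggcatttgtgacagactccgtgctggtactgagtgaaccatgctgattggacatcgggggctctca
The match in the Bglap promoter starts 132 bases before the start site, and those in the Mepe promoter 118 and 80 bases before it. Of the 40 tested osteoblast genes, 24 had a promoter in the table, and 7 of these (29.2%) held ACCACA on at least 1 strand, as did 4 of the 9 matched osteocyte genes (44.4%), 2 of the 18 matched resorption genes (11.1%) and 5 of the 19 matched cartilage matrix genes (26.3%). Of all 27025 genes with a promoter, 15.9% held it. TCACGTG, the E-box form bound by MITF, was in 2 of the 18 resorption promoters (11.1%), in 0 of the 19 cartilage promoters and in 3.58% of all. A match is a description of these letters and not a site of binding.

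Glycolysis and hypoxia genes fell. Of 33 tested, 17 fell and 1 rose (median log2 fold change -0.72), 22 had no overlap, and 15 to 18 fell with any single library left out. Slc2a1 (chr4:119108711-119137983), the glucose transporter GLUT1, stood at 96.1, 86.1 and 87.0 CPM on d7 and 22.8, 24.8 and 19.7 CPM on d10 (log2 fold change -2.0 ± 0.14 (SE), adjusted p = 4.4e-07). Eno1, an enolase, had 777, 1199.5 and 929 CPM on d7 and 307, 367 and 389 CPM on d10 (log2 fold change -1.45 ± 0.20 (SE), adjusted p = 1.1e-04), Pfkp, a phosphofructokinase, 76.4, 85.4 and 72.2 CPM on d7 and 36.4, 34.7 and 36.7 CPM on d10 (log2 fold change -1.12 ± 0.13 (SE), adjusted p = 2.0e-05) and Pfkl, the liver form, 142, 153 and 189 CPM on d7 and 67.7, 59.1 and 57.4 CPM on d10 (log2 fold change -1.39 ± 0.16 (SE), adjusted p = 2.9e-05). The days were separated in all 4 genes with little spread within a day. Bnip3, a mitophagy receptor induced by low oxygen, stood at 97.0, 108 and 75.9 CPM on d7 and 24.9, 27 and 29.6 CPM on d10 (log2 fold change -1.78 ± 0.21 (SE), adjusted p = 3.5e-05), and Egln3, an oxygen-sensing prolyl hydroxylase, fell by 2.03 on the log2 scale. Mif fell by 1.58 on the same scale. Other genes are near-identical to 94.2% of the Bnip3 transcript, 85.6% of Eno1, 68.8% of Pgk1, 67.0% of Mif and 55.0% of Ldha, so how reads divide there is uncertain. The summed level of the list did not follow, at 11400 to 12450 CPM on d7 and 9828 to 12628 CPM on d10. Ldha, lactate dehydrogenase, and Vegfa, the vessel growth factor, overlapped between the days, with log2 fold changes of -0.09 and -0.06.

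Capitals in the next 3 promoters mark ACGTG, the core of the hypoxia response element, on either strand.
Slc2a1, chr4:119108495-119108744, plus strand: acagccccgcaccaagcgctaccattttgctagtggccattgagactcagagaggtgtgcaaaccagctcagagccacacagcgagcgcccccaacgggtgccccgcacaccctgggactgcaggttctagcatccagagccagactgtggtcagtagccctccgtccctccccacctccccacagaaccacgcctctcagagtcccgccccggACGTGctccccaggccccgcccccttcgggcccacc
Bnip3, chr7:138909507-138909756, minus strand: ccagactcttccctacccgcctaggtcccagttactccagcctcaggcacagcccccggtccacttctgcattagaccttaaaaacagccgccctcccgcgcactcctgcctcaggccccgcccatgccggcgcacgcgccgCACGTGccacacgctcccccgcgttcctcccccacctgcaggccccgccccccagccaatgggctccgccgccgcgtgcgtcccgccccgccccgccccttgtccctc
Pgk1, chrX:106186850-106187099, plus strand: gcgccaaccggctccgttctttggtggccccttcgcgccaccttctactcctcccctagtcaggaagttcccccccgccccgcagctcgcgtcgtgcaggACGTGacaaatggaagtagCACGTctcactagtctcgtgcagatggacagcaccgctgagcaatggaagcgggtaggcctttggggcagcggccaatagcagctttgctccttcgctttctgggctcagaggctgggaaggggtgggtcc
Pgk1, phosphoglycerate kinase, stood at 335, 489 and 311 CPM on d7 and 164, 220.4 and 233 CPM on d10 (log2 fold change -0.88 ± 0.21 (SE), adjusted p = 0.0083), and was not called without d7 replicate 2 (adjusted p = 0.055). The matches start 36 bases before the start site in Slc2a1, 108 and 107 bases before it in Bnip3, where both strands of a palindrome match, and 150 and 131 bases before it in Pgk1. ACGTG, which also lies within the MITF letters TCACGTG, was in 17 of the 31 matched glycolysis and hypoxia promoters (54.8%) and in 18.5% of all. Among the called genes of the list with a promoter, 10 of 16 held it.

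Cholesterol synthesis genes fell too. Of 22 tested, 12 fell and 0 rose at this threshold, and 21 had a lower mean on d10 (median log2 fold change -0.84). Cyp51, which demethylates lanosterol, stood at 73.0, 69.2 and 50.7 CPM on d7 and 15.7, 29.5 and 30.3 CPM on d10 (log2 fold change -1.35 ± 0.22 (SE), adjusted p = 6.0e-04). Stard4, a sterol carrier, had 45.2, 44.1 and 34.9 CPM on d7 and 15.0, 16.9 and 23.2 CPM on d10 (log2 fold change -1.17 ± 0.19 (SE), adjusted p = 4.2e-04). Neither gene overlapped between the days. TCACNCCAC, a sterol response element, was in 1 of the 14 matched promoters (7.14%), that of Hmgcs1, and in 1.22% of all.

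Respiratory chain genes moved the other way by a small amount. Of 38 nuclear genes of the chain, 14 rose and 0 fell at this threshold, and 37 had a higher mean on d10 (median log2 fold change 0.50). Sdha, the flavoprotein of complex II, stood at 224, 241 and 191 CPM on d7 and 359, 381 and 441 CPM on d10 (log2 fold change 0.85 ± 0.15 (SE), adjusted p = 0.0013), and Cyc1, cytochrome c1, at 146, 153 and 168 CPM on d7 and 245, 306 and 268 CPM on d10 (log2 fold change 0.81 ± 0.17 (SE), adjusted p = 0.0041). The call count depended on single libraries: it was 3 without d10 replicate 2, 7 without d7 replicate 1 or d10 replicate 3, and 8 without d7 replicate 2. Markers of adult skeletal muscle, a tissue rich in mitochondria, were also higher. Their summed level over 36 genes was 15526 to 38162 CPM on d7 and 38259 to 51971 CPM on d10. The highest d7 sum, in replicate 1, lay just below the lowest d10 sum. Only Myh7 was called, and its call was lost in 6 of the 14 alternatives (adjusted p up to 0.15). The part of muscle in the respiratory chain result was not tested.

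Cell cycle genes were lower on d10. Of 40 tested, 17 fell and 0 rose at this threshold, and all 40 had a lower mean (median log2 fold change -0.67). Plk1, a mitotic kinase, stood at 24.2, 33.7 and 50.3 CPM on d7 and 16.5, 18.3 and 13.5 CPM on d10 (log2 fold change -1.16 ± 0.24 (SE), adjusted p = 0.0036), and Kif23, a motor of cytokinesis, at 33.6, 42.7 and 39.4 CPM on d7 and 16.2, 20.6 and 21.5 CPM on d10 (log2 fold change -0.99 ± 0.17 (SE), adjusted p = 8.8e-04). Cdk1 fell by 0.90 on the log2 scale, a call lost without d7 replicate 2 or d10 replicate 1 (adjusted p up to 0.13). Mki67 had 188, 244 and 321 CPM on d7 and 141, 193 and 224 CPM on d10 and overlapped (adjusted p = 0.3). The count fell to 4 without d10 replicate 1, which had the lowest summed level, and to 5 without d7 replicate 2. TTTGAA, the cell cycle homology region, was in 8 of 32 matched promoters (25.0%) and in 18.3% of all.

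Genes of progenitors and fibrous tissue fell as well. Of 29 tested, 12 fell and 1 rose (median log2 fold change -0.91), and the 1 that rose was Ctsk, which is also on the resorption list. Fn1, fibronectin, the scaffold of the early callus, stood at 7085, 10735 and 9140.0 CPM on d7 and 1927, 2833 and 2781 CPM on d10 (log2 fold change -1.84 ± 0.27 (SE), adjusted p = 1.8e-04). Col3a1, the collagen of granulation tissue, had 7667, 11574 and 7136 CPM on d7 and 2698, 2871 and 2769.7 CPM on d10 (log2 fold change -1.66 ± 0.33 (SE), adjusted p = 0.0024). Tnn, tenascin N of the periosteum, had 462, 771 and 414 CPM on d7 and 139, 122 and 120.4 CPM on d10 (log2 fold change -2.11 ± 0.35 (SE), adjusted p = 6.2e-04). In these genes d7 replicate 2 was the highest library, and without it 6 of the 29 genes fell. Acta2, the actin of smooth muscle and myofibroblasts, stood at 211, 388 and 218 CPM on d7 and 96.0, 123 and 84.3 CPM on d10 (log2 fold change -1.43 ± 0.33 (SE), adjusted p = 0.0081) and was not called without d7 replicate 2 (adjusted p = 0.051). Secretory pathway genes fell in 8 of 32 cases, with 0 rising (median -0.38). Those that fell were Creb3l2, Creld2, Ssr1, Pdia4, Sec23a, P4hb, Pdia6 and Kdelr3. The count was 3 without d7 replicate 2 or d10 replicate 2. Txndc5, a protein disulfide isomerase, is not on this list but on that of plasma cells. It fell too, with 475, 683 and 586 CPM on d7 and 294, 335 and 343 CPM on d10 (log2 fold change -0.84 ± 0.17 (SE), adjusted p = 0.0035).

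Growth factor pathways were mixed. Of 36 BMP and TGF-beta genes, 7 rose and 10 fell. Bmp3, a BMP antagonist of bone, stood at 8.10, 4.95 and 7.57 CPM on d7 and 30.5, 35.2 and 42.9 CPM on d10 (log2 fold change 2.39 ± 0.33 (SE), adjusted p = 1.3e-04), and Bmp7 at 3.73, 1.85 and 3.11 CPM on d7 and 13.1, 19.1 and 14.5 CPM on d10 (log2 fold change 2.42 ± 0.42 (SE), adjusted p = 8.3e-04). Bmp4 rose by 1.52 on the log2 scale. These 3 ligands were higher in every d10 library. Ltbp2, which binds microfibrils, fell by 1.78, Fst, follistatin, the activin trap, by 1.30, and Tgfb2 by 0.95, a call lost without d7 replicate 1 or d10 replicate 2 (adjusted p up to 0.055). Of 28 IGF and FGF genes, 3 rose and 9 fell. Fgf1 stood at 14.9, 10.3 and 11.6 CPM on d7 and 48.7, 39.1 and 29.5 CPM on d10 (log2 fold change 1.67 ± 0.27 (SE), adjusted p = 4.5e-04). Fgfrl1, a decoy FGF receptor, had 154, 219.9 and 249 CPM on d7 and 32.8, 41.5 and 35.6 CPM on d10 (log2 fold change -2.50 ± 0.25 (SE), adjusted p = 4.8e-06), Igf1 fell by 1.21 and Fgf7 by 1.14.

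Inflammatory genes fell, with calls that depended on single libraries. Of 33 cytokine and chemokine genes, 10 fell and 5 rose (median log2 fold change -1.11). Cxcl5, a neutrophil attractant, stood at 71.9, 71.2 and 3.51 CPM on d7 and 1.77, 2.61 and 0.0704 CPM on d10 (log2 fold change -5.04 ± 0.89 (SE), adjusted p = 9.9e-04). Il1b, the interleukin of early inflammation, had 176, 62.1 and 19.9 CPM on d7 and 15.0, 17.1 and 12.7 CPM on d10 (log2 fold change -2.52 ± 0.54 (SE), adjusted p = 0.0046). Arg1, arginase of wound macrophages, had 101, 22.5 and 5.27 CPM on d7 and 1.47, 2.46 and 0.42 CPM on d10 (log2 fold change -4.89 ± 0.98 (SE), adjusted p = 0.0027). The highest value of each was in d7 replicate 1, and d7 replicate 3 came near the d10 range. Tnf stood at 21.7, 1.26 and 1.22 CPM on d7 and 1.23, 1.30 and 0.915 CPM on d10. Its call (adjusted p = 0.034) rested on d7 replicate 1, and without that library the adjusted p was 0.93. It was also lost without any single d10 library. Of the 33 genes, 5 fell without d7 replicate 1, 6 without d10 replicate 1 or 3, and 16 without d7 replicate 3. The summed level of the list, which Cxcl12 leads, was 792 to 1403 CPM on d7 and 1372 to 1746 CPM on d10.

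Calls among neutrophil genes depended on single libraries too. Of 40 tested, 8 fell and 1 rose, the latter being Mmp9, which is also on the resorption list. The number that fell was 1 without d7 replicate 1, 3 without d10 replicate 2, 5 without d10 replicate 1 and 10 without d7 replicate 2. The summed level was highest in d7 replicate 3. The granule and calprotectin genes that define the cell were not called. S100a8 stood at 1152, 519.7 and 1889 CPM on d7 and 430.3, 784 and 1065 CPM on d10 (log2 fold change -0.64 ± 0.58 (SE), adjusted p = 0.53), and Mpo, myeloperoxidase, at 133, 45.8 and 311 CPM on d7 and 125, 197 and 179.7 CPM on d10 (log2 fold change 0.03 ± 0.48 (SE), adjusted p = 0.98). Their days overlapped. Those that fell were Ptgs2, Clec4d, Clec4e, Cxcr2, Trem1, Acod1, Hdc and Stfa2l1. Clec4d, a lectin of phagocytes, had 81.7, 49.3 and 29.2 CPM on d7 and 17.2, 21.4 and 19.2 CPM on d10 (log2 fold change -1.47 ± 0.34 (SE), adjusted p = 0.0077), and was not called without d7 replicate 1 (adjusted p = 0.054). Ptgs2, the inducible cyclooxygenase, which skeletal cells also express, had 145, 199 and 74.5 CPM on d7 and 18.6, 14.7 and 18.4 CPM on d10 (log2 fold change -3.02 ± 0.46 (SE), adjusted p = 2.9e-04), with no overlap. Cxcl16, a ligand for CXCR6, stood at 59.7, 67.1 and 43.4 CPM on d7 and 39.0, 31.7 and 29.6 CPM on d10 (log2 fold change -0.76 ± 0.18 (SE), adjusted p = 0.0075).

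Chemokines that rose were others. Cxcl12, the stromal factor that holds blood-forming cells in marrow, stood at 262, 240.0 and 329 CPM on d7 and 984, 704 and 729 CPM on d10 (log2 fold change 1.54 ± 0.20 (SE), adjusted p = 7.1e-05). Ccl9 rose by 1.66 on the log2 scale. Cxcl9, induced by interferon gamma, had 1.58, 1.18 and 1.01 CPM on d7 and 15.8, 9.63 and 4.36 CPM on d10 (log2 fold change 2.97 ± 0.62 (SE), adjusted p = 0.0039), and Ccl5 2.78, 2.14 and 5.68 CPM on d7 and 13.7, 10.4 and 7.67 CPM on d10 (log2 fold change 1.58 ± 0.32 (SE), adjusted p = 0.0029). In all 4 genes the days were separate. Ifng itself had at most 0 counts in a d7 library and 2 in a d10 library and was not tested. Of 42 interferon response genes, 4 rose and 0 fell at this threshold (median 0.34), and 36 had a higher mean. Over all tested genes 6.01% rose, and Cxcl9, already counted as a chemokine, is among the 4.

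Of 39 monocyte and macrophage genes, 3 rose, 3 fell and 33 were not called (median log2 fold change 0.11). Over all tested genes 6.01% rose and 7.01% fell, so these counts lie near the share of all genes. Cd68, a lysosomal protein of macrophages and osteoclasts, stood at 131, 129.9 and 133 CPM on d7 and 385, 342 and 371 CPM on d10 (log2 fold change 1.48 ± 0.23 (SE), adjusted p = 3.3e-04). Csf1r and Tyrobp, which osteoclasts also express, were the others that rose. Adgre1, F4/80 of tissue macrophages, had 34.1, 32.7 and 29.9 CPM on d7 and 30.4, 34.2 and 25.1 CPM on d10 (log2 fold change -0.11 ± 0.24 (SE), adjusted p = 0.83), with overlap. Ptprc, the CD45 of all leukocytes, had 76.7, 55.6 and 80.7 CPM on d7 and 86.1, 54.8 and 68.5 CPM on d10 (log2 fold change -0.02 ± 0.25 (SE), adjusted p = 0.97). Of 30 genes of dendritic cells and MHC class II, 5 rose and 0 fell at this threshold. Cd83 stood at 7.85, 4.36 and 5.34 CPM on d7 and 23.3, 17.2 and 23.9 CPM on d10 (log2 fold change 1.87 ± 0.24 (SE), adjusted p = 7.5e-05), whereas H2-Ab1 overlapped, at 75.1, 86.8 and 123 CPM on d7 and 146, 117 and 74.2 CPM on d10 (log2 fold change 0.24 ± 0.26 (SE), adjusted p = 0.61).

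Of 34 genes of B cells and their precursors, 19 rose and 2 fell (median log2 fold change 1.74), and 24 had no overlap. Their summed level overlapped between the days, at 620.3 to 1504 CPM on d7 and 947 to 1229 CPM on d10. Igll1, part of the surrogate light chain of the pre-B receptor, stood at 0.190, 0.148 and 0.743 CPM on d7 and 3.47, 10.6 and 7.95 CPM on d10 (log2 fold change 4.32 ± 0.69 (SE), adjusted p = 4.3e-04). Vpreb1, the other part, had 0.190, 0.443 and 1.62 CPM on d7 and 3.24, 8.19 and 4.79 CPM on d10 (log2 fold change 2.84 ± 0.54 (SE), adjusted p = 0.002). A near-copy of Vpreb1 matches 89.8% of its length, so its reads may be split. Cd79b, the signal chain of the B cell receptor, had 4.75, 3.47 and 12.8 CPM on d7 and 26, 36.8 and 23.4 CPM on d10 (log2 fold change 2.03 ± 0.38 (SE), adjusted p = 0.0017). All d10 libraries were above all d7 libraries in these genes, and d7 replicate 3 was the highest of d7 in each. The members that fell were Erg and Cd24a, which other cells also express. With single libraries left out, 8 to 26 of the list rose, 8 without d10 replicate 2, 9 without d7 replicate 2, 10 without d7 replicate 1 and 26 without d7 replicate 3. With all 30 libraries in 1 fit, 6 rose, and Cd79b was not among them (adjusted p = 0.053).

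Of 36 T and NK cell genes, 9 rose and 0 fell at this threshold (median 1.28), and 34 had a higher mean. Cd5 stood at 0.443, 0.517 and 1.15 CPM on d7 and 5.32, 3.48 and 4.64 CPM on d10 (log2 fold change 2.66 ± 0.42 (SE), adjusted p = 4.2e-04), and Cd2 at 0, 0.591 and 0.946 CPM on d7 and 3.94, 3.26 and 2.25 CPM on d10 (log2 fold change 2.62 ± 0.55 (SE), adjusted p = 0.0039). Cd3e, the core of the T cell receptor complex, was near the limit of detection, at 0.38, 0.148 and 0.878 CPM on d7 and 1.70, 0.435 and 0.563 CPM on d10 (log2 fold change 0.91 ± 0.73 (SE), adjusted p = 0.47), and its days overlapped. The count rose to 16 without d7 replicate 3 and fell to 6 without d7 replicate 1, d7 replicate 2 or d10 replicate 2. Plasma cell genes showed 2 of 16 rising and 1, Txndc5, falling, beside 6.01% and 7.01% of all tested genes. Jchain overlapped, at 19.6, 6.20 and 40.7 CPM on d7 and 28.2, 36.2 and 59 CPM on d10 (log2 fold change 0.89 ± 0.66 (SE), adjusted p = 0.43).

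Red cell genes did not separate the days. Of 39, 1 rose, Tfrc, the transferrin receptor, which osteoclasts and dividing cells also use. Hbb-bs, adult beta globin, stood at 903, 529 and 4295 CPM on d7 and 1178, 2978 and 2861 CPM on d10 (log2 fold change 0.29 ± 0.59 (SE), adjusted p = 0.81). d7 replicate 3 was the highest of the 6 libraries for the summed erythroid list, at 10480 CPM beside 1376 and 2361 CPM in the other d7 libraries and 2999 to 6604 CPM on d10, and it was also the d7 library with the highest B cell, T cell and neutrophil sums. Without it, 14 erythroid genes rose. The part of blood or marrow content in the lymphoid results was not tested. Of 22 megakaryocyte and platelet genes, 1 rose and 2 fell, and of 20 genes of blood-forming progenitors 0 rose and 3 fell. Over all tested genes 6.01% rose and 7.01% fell.

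Some fat genes rose, most of all in 1 library. Of 30 adipocyte genes, 10 rose, 0 fell at this threshold and 20 were not called (median log2 fold change 0.86), and 14 had no overlap. Their summed level overlapped between the days, at 1029 to 1693 CPM on d7 and 1621 to 2590 CPM on d10. Adipoq, adiponectin, made by fat cells and by marrow stroma, stood at 5.19, 4.36 and 11.2 CPM on d7 and 49, 22.7 and 20.9 CPM on d10 (log2 fold change 2.15 ± 0.37 (SE), adjusted p = 8.4e-04). Pparg, the transcription factor of fat cells, had 3.73, 3.55 and 5.20 CPM on d7 and 11.1, 13.8 and 10.9 CPM on d10 (log2 fold change 1.52 ± 0.21 (SE), adjusted p = 1.5e-04). Cfd, adipsin, had 0.506, 0.295 and 2.97 CPM on d7 and 44.1, 12.3 and 8.87 CPM on d10 (log2 fold change 4.09 ± 0.73 (SE), adjusted p = 0.0011). Cidec, a lipid droplet protein, had 0.443, 0.813 and 0.811 CPM on d7 and 30.1, 10.00 and 5.42 CPM on d10 (log2 fold change 4.46 ± 0.85 (SE), adjusted p = 0.0019). In each of these genes no d10 library overlapped d7, and d10 replicate 1 was the highest for Adipoq, Cfd and Cidec. Plin1, perilipin, had 0, 0.443 and 0.338 CPM on d7 and 9.95, 2.61 and 1.20 CPM on d10 (log2 fold change 4.14 ± 0.97 (SE), adjusted p = 0.0083) and was not called without d10 replicate 1 (adjusted p = 0.065). Without that library 7 of the 30 genes rose. Fabp4, also made by endothelium, had 169, 140.4 and 126 CPM on d7 and 262, 252 and 199 CPM on d10 and was not called (adjusted p = 0.078). Lepr, the leptin receptor of marrow stroma, stood at 31.3, 17.4 and 15.2 CPM on d7 and 50.6, 34.8 and 53.6 CPM on d10 (log2 fold change 1.12 ± 0.31 (SE), adjusted p = 0.024). Its call was lost without d7 replicate 2 or 3, or d10 replicate 1 or 3.

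Of 30 endothelial genes, 5 rose and 3 fell, and 15 had no overlap between the days (median log2 fold change 0.27). Over all tested genes 6.01% rose, 7.01% fell and 27.1% had no overlap. Pecam1, CD31, overlapped, at 181, 154 and 141 CPM on d7 and 170.5, 162 and 152 CPM on d10 (log2 fold change 0.03 ± 0.15 (SE), adjusted p = 0.94), and Emcn, endomucin of bone vessels, had 65.5, 55.7 and 35.3 CPM on d7 and 83.5, 81.1 and 89.9 CPM on d10 (log2 fold change 0.70 ± 0.23 (SE), adjusted p = 0.057), with no overlap but no call. Gpihbp1, the capillary anchor of lipoprotein lipase, stood at 34.2, 32.7 and 32.8 CPM on d7 and 69.4, 77.9 and 74.6 CPM on d10 (log2 fold change 1.15 ± 0.22 (SE), adjusted p = 0.0017), and Apln, apelin of sprouting vessels, at 47.1, 49 and 47.2 CPM on d7 and 30.4, 26.7 and 16.2 CPM on d10 (log2 fold change -0.97 ± 0.25 (SE), adjusted p = 0.014), which was not called without d10 replicate 3 (adjusted p = 0.07). Of 18 genes of pericytes and smooth muscle, 2 rose and 3 fell, beside the same shares of all tested genes.

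Of 19 muscle regeneration genes, 11 fell and 1 rose (median log2 fold change -2.56). The summed level of the list did not follow, at 2902 to 5511 CPM on d7 and 4739.9 to 6789.7 CPM on d10. The list also holds Ckm and Des, which are on the list of adult skeletal muscle too, and their part in the sum was not tested. Myh3, embryonic myosin, stood at 28.6, 123 and 79.7 CPM on d7 and 2.24, 8.84 and 4.15 CPM on d10 (log2 fold change -3.92 ± 0.87 (SE), adjusted p = 0.0057), and Myog, myogenin, which drives fusion of myoblasts, at 11, 41.8 and 32.6 CPM on d7 and 2.16, 3.48 and 1.76 CPM on d10 (log2 fold change -3.52 ± 0.80 (SE), adjusted p = 0.0067). Chrna1, a subunit of the muscle acetylcholine receptor, had 37.5, 54.7 and 33.2 CPM on d7 and 2.24, 7.39 and 5.35 CPM on d10 (log2 fold change -3.06 ± 0.67 (SE), adjusted p = 0.0049). All d10 libraries were below d7 in these 3 genes. Cdh15, M-cadherin of satellite cells, rose instead, at 18.5, 17.9 and 14.1 CPM on d7 and 48.1, 41.8 and 44.8 CPM on d10 (log2 fold change 1.42 ± 0.20 (SE), adjusted p = 1.3e-04). Myh4 and Acta1, of adult fibres, overlapped or did not pass the test, with adjusted p = 0.31 and 0.98. Of 20 Schwann cell and nerve genes, 6 fell and 0 rose at this threshold, among them Cdh19 of Schwann cell precursors, at 10.2, 4.36 and 5.74 CPM on d7 and 0.772, 0.362 and 1.13 CPM on d10 (log2 fold change -3.15 ± 0.50 (SE), adjusted p = 4.2e-04).

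**Figure D3:**
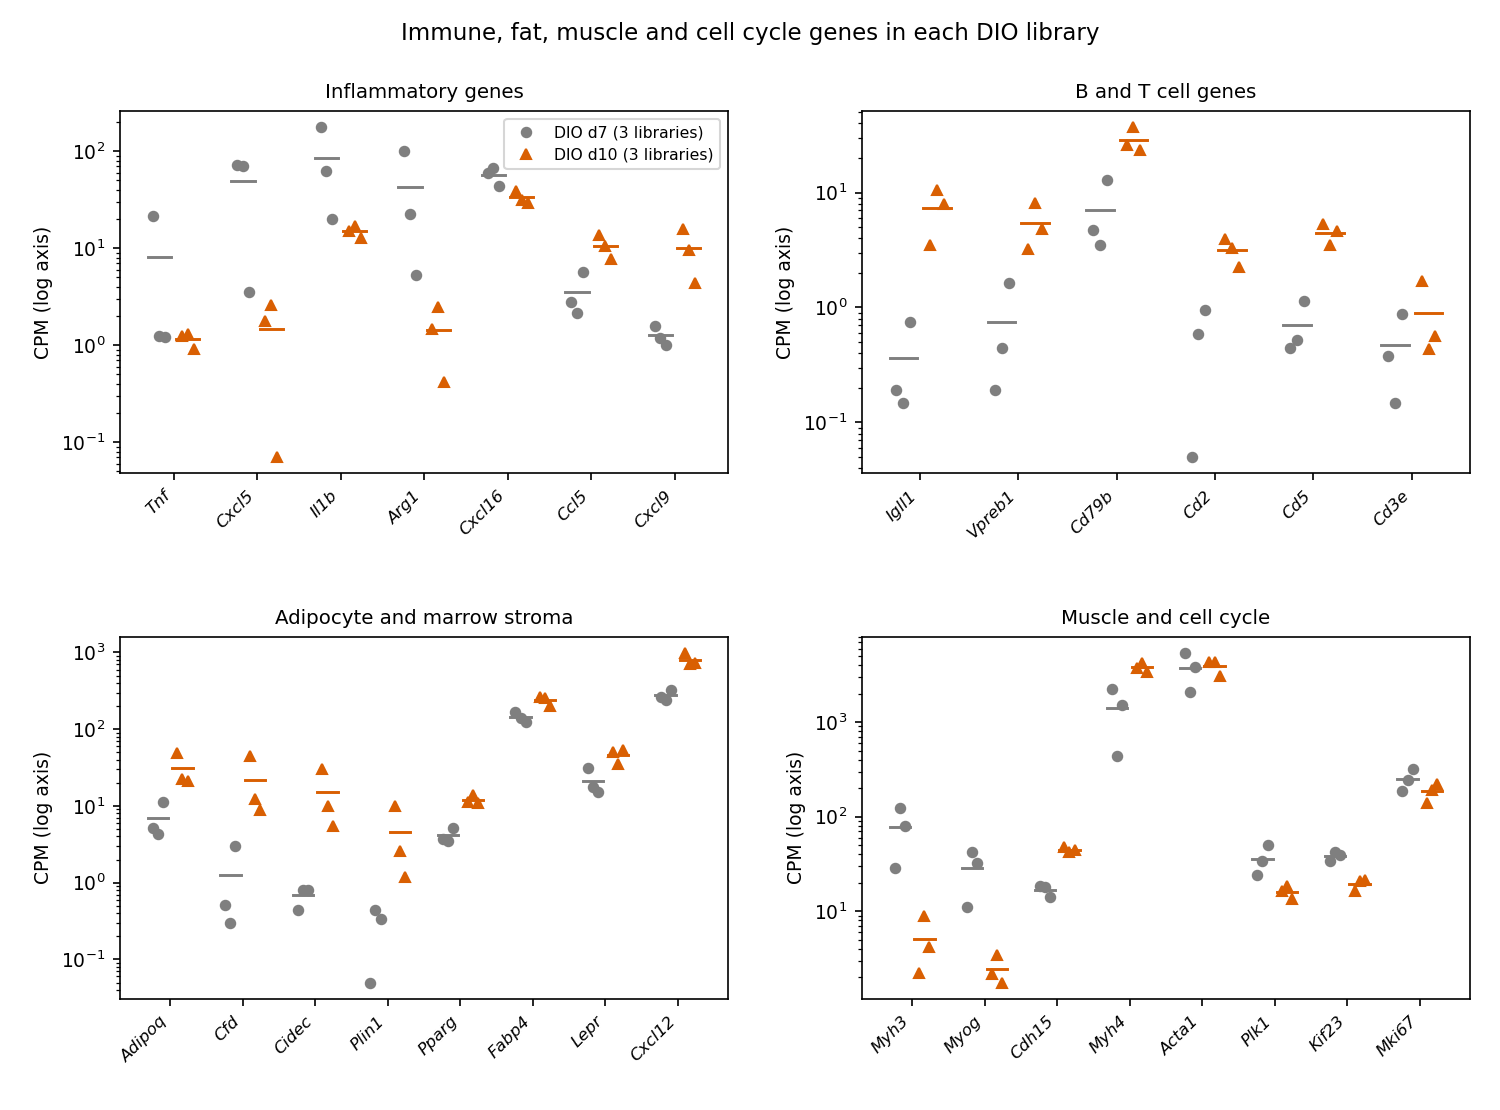
CPM on a log axis in each DIO library of d7 (grey circles) and d10 (orange triangles) for inflammatory, lymphoid, fat, muscle and cell cycle genes, with a bar at the mean unless a library was at 0, which is drawn at 0.05 CPM. For Tnf, only d7 replicate 1 stands above the d10 libraries by more than 1 CPM, while Igll1, Cidec and Cdh15 are separate between the days.

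The days on either side place the interval in the course of healing. In the DIO libraries Col2a1 had a mean of 7814 ± 2644 CPM (SD, n = 3) on d5, 19550.0 ± 8979 CPM on d7, 2413 ± 1460.4 CPM on d10 and 308 ± 261 CPM on d14. Acp5 was at 702 ± 183 CPM on d5, 538 ± 139 CPM on d7, 5920.3 ± 841 CPM on d10 and 5815 ± 2177 CPM on d14. For Col2a1 and Sox9 the highest mean of the 6 days was on d7, and for Adipoq it was on d21.

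**Figure D4:**
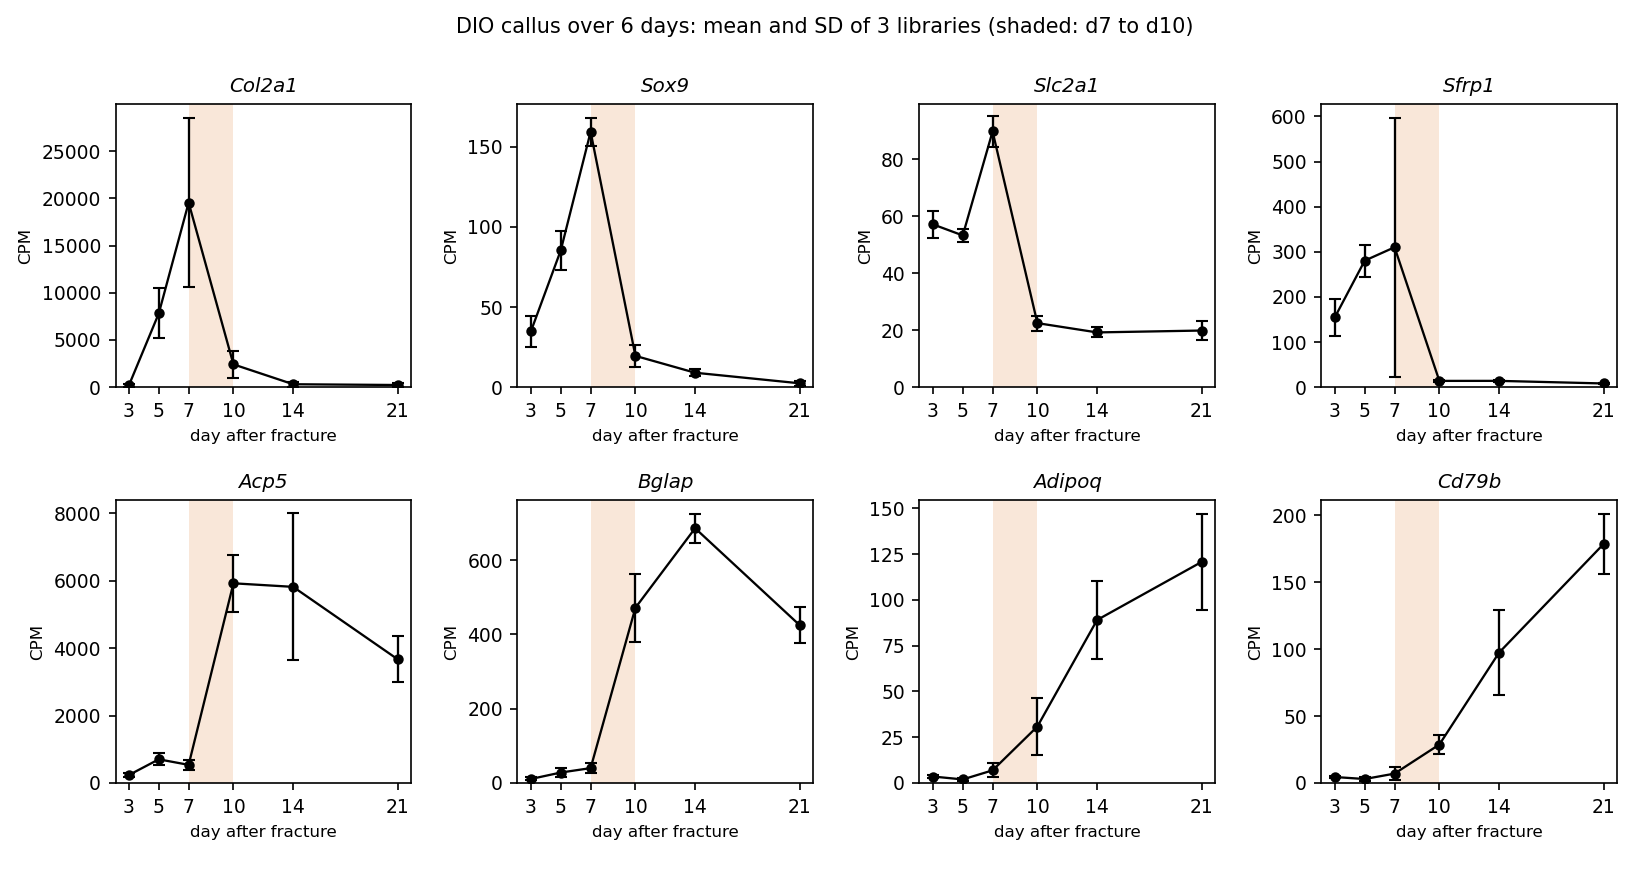
Mean CPM with SD of 3 DIO libraries (y axis) against the day after fracture (x axis) for 8 genes, with the interval from d7 to d10 shaded. Mean Bglap was at 40.1 ± 13.9 CPM on d7 and at 472 ± 91.0 CPM on d10.

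Whether these changes were particular to DIO mice was tested as the difference between the change in DIO and that in Lean callus over the same days, in the 24 libraries of d3 to d10. Levels in this fit carry its own TMM factors. The change differed for 865 of 17057 genes (5.07%), with the DIO change above the Lean change for 290 (1.70%) and below it for 575 (3.37%). This count ran from 257 to 1660 as single libraries were left out. Of 27 cartilage matrix genes, 17 had a DIO change below the Lean change and 0 above. In the same fit the median log2 fold change was -2.71 in DIO and 1.48 in Lean callus. Col2a1 in Lean libraries was at 3192, 2186 and 9544 CPM on d7 and 46755, 8799 and 7078 CPM on d10. The Lean d10 library of replicate 1 was several-fold above the others, and its list sum was 90726 CPM beside 19108 and 22094 CPM. Without it 12 of the 27 genes still differed. The log2 difference for Col2a1 was -5.07 with all libraries (adjusted p = 0.014) and lay between -5.96 and -3.67 over all 17 alternatives. The call for Col2a1 was lost in 3 of the 17, among them the fit without Lean d10 replicate 1.

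Sox9 was at 31, 20.9 and 74.0 CPM in Lean callus on d7 and 133, 32.9 and 36.6 CPM on d10, a log2 difference between the diets of -3.69 ± 0.68 (SE, adjusted p = 0.0049). Among resorption genes the median change was 0.91 in Lean callus, and for 15 of 30 genes the DIO change was above the Lean change. Acp5 was at 1569.7, 1706 and 1077 CPM in Lean callus on d7 and 5024, 5448 and 6219 CPM on d10. The DIO and Lean libraries overlapped on d10, and on d7 all Lean libraries were above all DIO libraries (log2 difference of the changes 1.54 ± 0.32, adjusted p = 0.01). With single libraries left out, 6 to 16 resorption genes differed, 6 without Lean d10 replicate 1 and 7 without Lean d7 replicate 2.

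Glycolysis and hypoxia genes differed in 14 of 33 cases, in each with the DIO change below the Lean change (Lean median 0.20), and 13 to 16 did so with single libraries left out. Slc2a1 was at 22.4, 24.3 and 32.6 CPM in Lean callus on d7 and 75.2, 23.2 and 21.6 CPM on d10, and its DIO d7 libraries lay above every Lean library (log2 difference -2.58 ± 0.45, adjusted p = 0.0037). Of 22 cholesterol genes, 8 differed in the same direction, 2 to 12 with single libraries left out. Of 42 interferon response genes, 12 had a DIO change above the Lean change, 3 to 20 with single libraries left out, and the Lean median was -1.03. Among fat genes, Pparg differed by 2.03 ± 0.41 on the log2 scale (adjusted p = 0.0071).

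**Figure D5:**
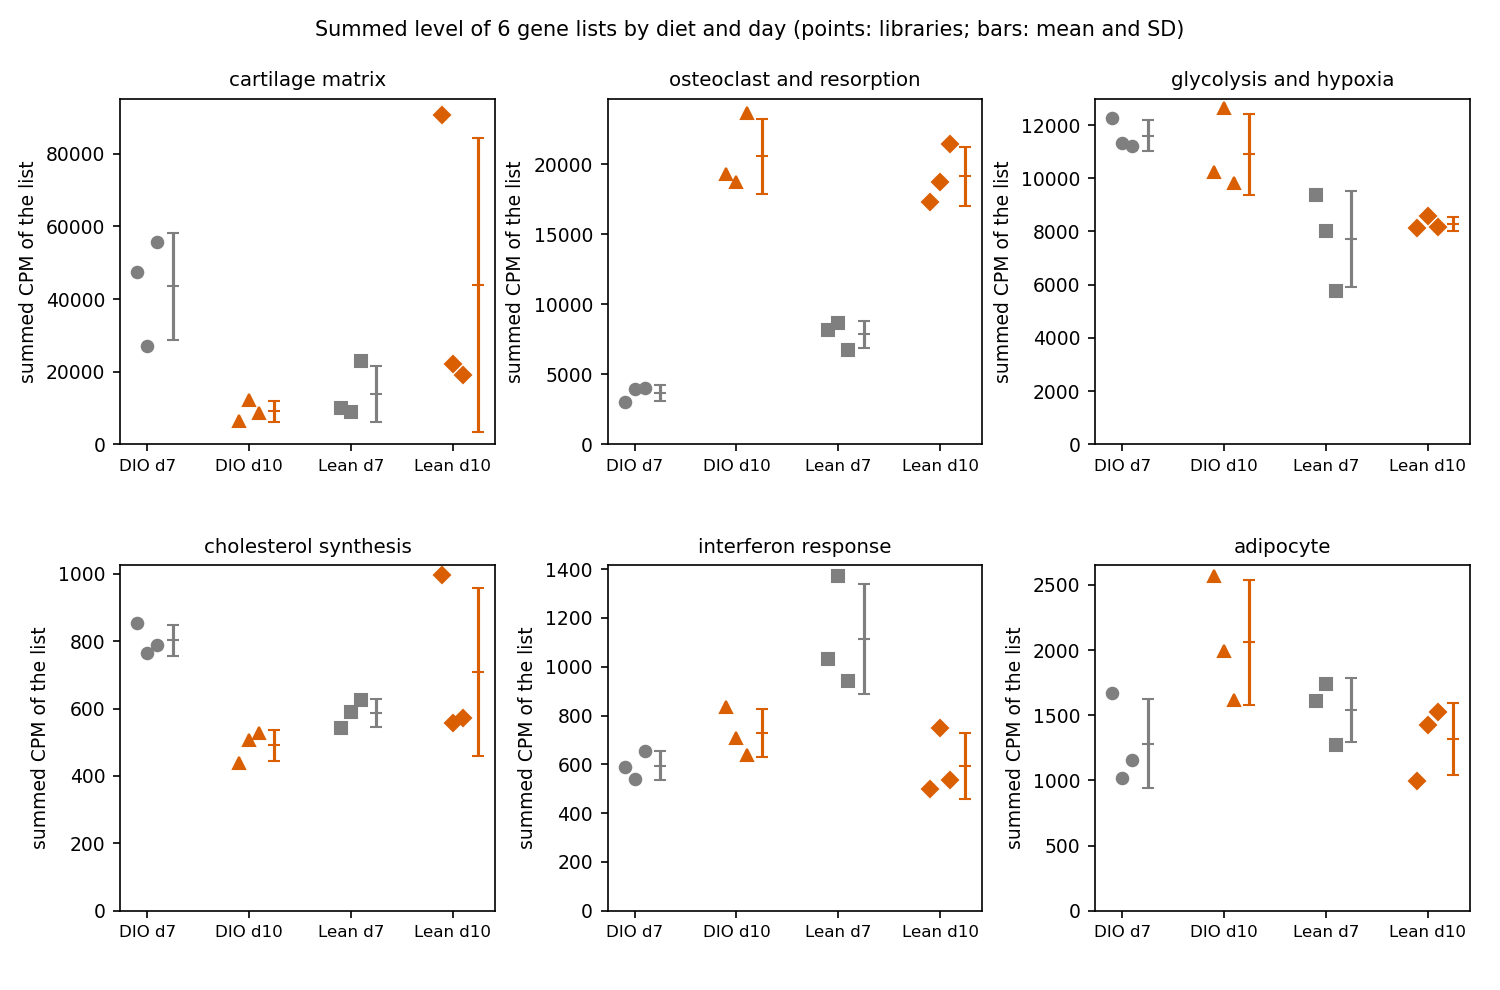
Summed CPM of 6 gene lists (y axis, from 0) in DIO and Lean callus on d7 and d10 (x axis), with 1 point per library and the mean and SD of 3 libraries beside them. The cartilage matrix sum was lower in every d10 than in every d7 library of DIO mice, and in Lean mice the highest value, 90726 CPM, was a d10 library.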

How the data were processed

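Poly(A) RNA of whole callus was sequenced as stranded libraries. The authors deposited raw counts per gene, made with bcl2fastq, BBDuk, HISAT2 2.1.0 (GRCm38) and HTSeq; the strand setting and annotation of the counting are not given in the sources used here. The members and gene lists were chosen with earlier results of these data known. Genes passing filterByExpr were tested in edgeR 4.0.16 (R 4.3.3, TMM factors, quasi-likelihood test, Benjamini-Hochberg adjustment, threshold 0.05) in a fit of the 18 DIO libraries with 12 residual degrees of freedom. The diet difference was an interaction contrast in the 24 libraries of d3 to d10. Positions came from GENCODE M21, which matched 42548 of 43629 genes, near-identical stretches (at least 100 bases at 95%) from BLAST 2.17.0, and promoters from RefSeq. Named genes, 178 in all, were the 12 largest changes per direction among called genes without overlap between the days and with a mean of at least 5 CPM, up to 4 genes per list with the smallest adjusted p, fixed markers, and up to 10 genes with the largest diet difference. A further 65 were chosen after their values were seen, of which the report uses Pgk1, Bnip3, Egln3, Eno1, Runx2, Alpl, Tnfsf11, Tnfrsf11b, Tnfrsf11a, Nfatc1, Tcirg1, Ocstamp, Myog, Hapln1, Comp, Prg4, Cnmd, Col9a1, Col9a2, Phex, Il1b, Col3a1, Postn, Otos, Bmp4, Tgfb2, Fst, Igf1, Fgf7, Ldha, Vegfa, Cdk1, Ifitm5, Col22a1, Csf1 and Il34. The alternatives were DESeq2 1.42.0, other scalings, filters and sample sets, a 1.5-fold threshold, a replicate block and leaving out each library. Same-numbered d7 and d10 libraries correlated at 0.11, -0.09 and -0.12 in their deviations, so numbers only name samples. Scripts were tested on simulated data. Some genes are not reported here.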

Additional observations from a re-analysis of the deposited data

Results flagged for a closer look

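The change from d7 to d10 differed between DIO and Lean callus for 865 genes, by the interaction test of edgeR. Among named genes, the difference (DIO change minus Lean change, log2) was negative for Ucma, at -8.35, Epyc, a small proteoglycan of cartilage, at -6.65, Meltf at -5.92, Il17b at -5.68, Col9a3 at -5.61, Kcna6 at -5.54, Matn3 at -5.53, Chit1 at -5.39, Moxd1 at -5.30, Aqp5 at -5.23 and Scrg1 at -5.16. Further cartilage genes were Col2a1 at -5.07, Acan at -4.97, Gdf5 at -4.74, Sox9 at -3.69, Ihh at -3.65 and Pth1r at -2.14, and the WNT antagonist Sfrp5 was at -3.78. The DIO change was above the Lean change for Adipoq by 3.92, Bglap by 2.92, Cxcl12 by 1.96, Acp5 by 1.54, Ctsk by 1.43, Mmp9 by 1.22 and Cd68 by 0.96. Over 17 alternatives the call was lost in 10 for Cxcl12 and Mmp9, 9 for Pth1r, 8 for Bglap, Cd68 and Ihh, 5 for Ctsk, 3 for Adipoq and Col2a1, 2 for Aqp5, and 1 for Il17b and Sfrp5.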

How the results depend on the processing

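For the 2212 genes that changed, a 1.5-fold threshold left 757, of which 327 were higher and 430 lower. With single libraries left out the count ran from 1510, without DIO d10 replicate 2, to 2495, without DIO d7 replicate 3, with 699 to 1153 higher and 774 to 1342 lower. DESeq2 called 2636, of which 2202 were shared, and the 6 libraries alone gave 1643. The diet difference moved more: it was 1496 with DESeq2, 283 with the 12 libraries of d7 and d10 alone, and 257, without Lean d10 replicate 1, to 1660, without Lean d10 replicate 3. With a replicate block the counts were 1982 and 838. Of the 243 named genes, 201 were called and 145 of these under all 14 alternatives, and 0 changed sign. With 3 mice per group, an exact test of a single value cannot go below p = 0.1.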

Other observations

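The following imprinted genes were chosen after their values were seen, so their values are a description and say nothing of imprinted genes as a group. Peg3, a zinc finger gene expressed from the paternal allele, stood at 581, 529 and 502 CPM on d7 and 68.1, 86.4 and 98.8 CPM on d10 (log2 fold change -2.67 ± 0.25 (SE), adjusted p = 3.8e-06). Plagl1, a zinc finger regulator of growth, had 116, 58.7 and 109 CPM on d7 and 16.7, 9.05 and 10.5 CPM on d10 (log2 fold change -2.97 ± 0.40 (SE), adjusted p = 9.9e-05), and H19, a long RNA of the maternal allele, 1722, 3848 and 2314 CPM on d7 and 343, 345 and 408 CPM on d10 (log2 fold change -2.85 ± 0.76 (SE), adjusted p = 0.018). No d10 library overlapped d7 in these 3 genes, and the call for H19 was lost without d7 replicate 2 or any single d10 library (adjusted p up to 0.07). Mest had 484, 789.6 and 628 CPM on d7 and 112, 143 and 156 CPM on d10 (log2 fold change -2.21 ± 0.33 (SE), adjusted p = 2.6e-04), and 34.2% of its transcript is near-identical to part of a neighbouring gene. Igf2, the growth factor beside H19, had 189, 237 and 195 CPM on d7 and 96.1, 78.7 and 58.6 CPM on d10 and did not pass the test (adjusted p = 0.11). A gene on the same strand overlaps 62.8% of the Igf2 exons.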
